A study of Mus musculus with 9 samples.

Results

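The enzymes that make and recycle purine and pyrimidine nucleotides were followed through 31 genes, which were listed by name for their place in these pathways. The list was chosen with earlier results of these data known. Of the 31, 30 had a row among the 25759 genes of the expression table, and Aprt, which recycles adenine, is not analysed here. The filter on low values asked for 0.5 FPKM or more on average across the 9 libraries, and all 30 passed it, as did 15126 genes in all. FPKM counts fragments relative to transcript length and to the mapped fragments of the library, so levels of different genes can be set side by side.

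RNA of mouse CD4+ T cells was sequenced in 9 libraries, 3 in each of 3 groups, all from C57BL/6 mice of 8 to 12 weeks that carried the Foxp3GFP reporter transgene, which marks regulatory T cells. Naive wild-type (WT) cells were sorted straight from lymph node and spleen as CD4+CD44-CD62+ reporter-negative cells. Activated WT cells came from mixed lymph node and spleen cells that had been kept in vitro for 3 days with ConA, a mitogen of T cells, at 2 ug/ml and LPS at 10 ng/ml and were then sorted as CD4+CD44+CD62- reporter-negative cells. Activated knockout cells were obtained in the same way from mice labelled BMPR1a/CD4cre, in which Cre is driven by the Cd4 promoter and acts in T cells. Naive knockout cells are not analysed here, so the comparison of genotypes was made in activated cells, and the comparison of activated with naive cells also compares cultured with uncultured cells and different sort gates. The labels leave unsaid whether replicates are different mice or cultures, and p-values therefore measure only how far these libraries spread, which may be technical.

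Both kinds of nucleotide are built on phosphoribosyl pyrophosphate (PRPP). The purine route assembles the ring on PRPP step by step up to inosine monophosphate (IMP), which is then turned into AMP or GMP, while the pyrimidine route makes the ring first and joins it to PRPP to give UMP and later CTP. Ribonucleotide reductase and the thymidylate enzymes turn these products into the deoxynucleotides (dNTPs) used to copy DNA, and salvage enzymes return free bases and nucleosides to the pool. Resting T cells are known to rely largely on salvage, and dividing T cells on new synthesis as well.

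The targeted gene, Bmpr1a, which encodes a receptor of the bone morphogenetic protein pathway (ENSMUSG00000021796, GRCm38 chr14:34410734-34503341), had 0.460, 0.311 and 0.336 FPKM in naive WT, 2.16, 2.92 and 1.40 in activated WT and 0.957, 1.93 and 1.20 in knockout libraries. The activated groups overlapped (log2 fold change of knockout over WT -0.41, SE 0.21, adjusted p 0.261), and a value for the whole gene does not resolve the deleted part. The CD4 T cell identity genes were abundant in all 9 libraries, with a summed level of the 8 genes of 2372 to 2805 FPKM. Markers of other cells differed between naive and activated libraries: 7 neutrophil genes summed to 53.0, 643 and 105 FPKM in the naive libraries and to at most 1.25 in the activated ones, with Camp listed at 0 in all 3 activated WT libraries. The 7 macrophage and monocyte genes summed to 22.1 to 192 FPKM in naive and 5.63 to 8.66 in activated libraries, and the 6 erythroid genes to 63.6 to 84.2 and at most 1.72. The 2 CD8 genes ran the other way, with 9.48 to 41.4 FPKM in naive, 147 to 230.4 in activated WT and 219.6 to 279 in knockout libraries. The 6 B cell genes summed to 3.08 to 175 FPKM in naive and 119.9 to 182 in activated libraries, and the 5 dendritic cell genes to at most 6.37. The 6 NK cell genes did not move together: Klrk1, Klrd1 and Gzma rose on activation and Tyrobp and Klrb1c fell, while Ncr1 was at 0.416 to 1.21 FPKM in naive and at most 0.0584 in activated libraries. Klrk1 was also called higher in the knockout, with 51.0, 50.3 and 52.7 FPKM against 30.5, 24.5 and 33.1 in activated WT libraries (0.80, adjusted p 0.0232). It was the 1 NK cell gene called there of 5 tested, of which 3 had positive fold changes. Gzma ran the other way, with 20.0, 32.5 and 24.6 FPKM in knockout and 67.5, 38.7 and 54.3 in activated WT libraries. Its fold change of -1.02 was not called (limma adjusted p 0.157). The part of these cells in the results below was not tested, and fewer cells of a type and less RNA per cell cannot be told apart in bulk samples.

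The 30 genes did not move as a block when WT cells were activated. Of them 13 rose and 6 fell at an adjusted p under 0.05, where 26.2% of all tested genes were called higher and 25.8% lower. By role, 6 of 8 genes of dNTP supply rose and none fell, and 3 of the 4 genes that convert IMP rose, whereas 1 of 8 genes of PRPP and IMP synthesis rose and 3 fell. The median log2 fold change was 1.91 for dNTP supply, 0.02 for pyrimidine synthesis, -0.18 for PRPP and IMP synthesis and 0.60 for the conversion of IMP, against 0.10 for all 30 genes and -0.01 for all genes tested. Without naive WT replicate 2, which held the most neutrophil RNA, 14 genes rose and 6 fell, and the remaining naive libraries also held more of it than the activated ones.

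In activated knockout against activated WT cells, all 30 genes had a positive fold change, as had 9152 of the 15126 genes tested. Of them 9 were called higher and 0 lower, where 3.30% of all tested genes were called higher and 0.840% lower. At 22 of the 30 genes every knockout library lay above every activated WT library, and over all tested genes this was so at 22.8%. The median log2 fold change was 0.44 for the 30 genes and 0.06 for all genes tested, and 23 of the 30 had an unadjusted p under 0.05, as had 3786 of the 15126. The 9 calls had adjusted p-values between 0.0276 and 0.0483, close to the threshold. With median-of-ratios scaling, which also took the share of higher genes among all calls from 79.7% to 54.2%, limma called 0 of the 30 at an adjusted p under 0.05 and 18 at an unadjusted one, with 28 positive fold changes and a median of 0.37 against 0.00 for all genes. The count of 9 also changed with single libraries: it was 13 without knockout replicate 1, 6 without naive replicate 3, 4 without naive replicate 2, 2 without activated WT replicate 1 and 0 without any other one library, naive replicate 1 included. The naive libraries enter this comparison only through the shared estimate of the spread.

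**Figure D1:**
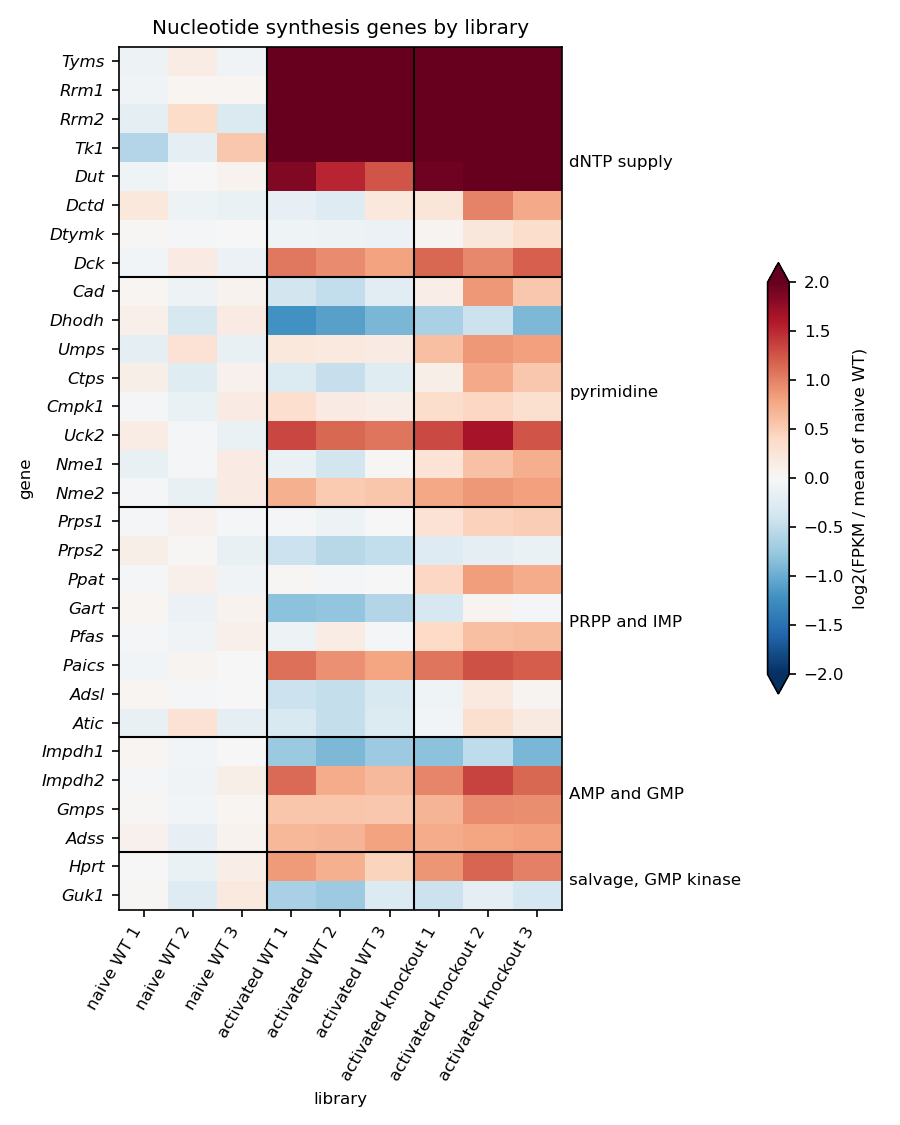
Heat map of the 30 genes (rows, grouped by role) in the 9 libraries (columns). Color gives the log2 ratio of a library's FPKM to the mean of the 3 naive WT libraries, and colors saturate at -2 and 2. Of the 8 uppermost rows, the genes of dNTP supply, 6 are red in all activated libraries, and the knockout columns are redder or less blue than the activated WT columns in most rows.

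Knockout replicate 1 was the library nearest to the activated WT group. It was the lowest of the 3 knockout libraries at 25 of the 30 genes and the highest at 0, while knockout replicate 2 was the highest at 20. Among the activated WT libraries, replicate 1 was the highest at 17 genes, including 7 of the 8 genes of dNTP supply.

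Activated knockout cells were also set against naive WT cells, which differ from them in both genotype and activation, and each group is shared with another comparison. Here 23 of the 30 genes were called higher and 2 lower, where 31.8% of all tested genes were called higher and 25.1% lower. All 8 genes of dNTP supply and 7 of the 8 pyrimidine genes were higher, and Dhodh and Impdh1 were lower. Of these 25 calls 20 held in all 19 alternative analyses, while Dtymk held in 5, Ctps in 6, Cad in 9, Dctd in 11 and Nme1 in 17.

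**Figure D2:**
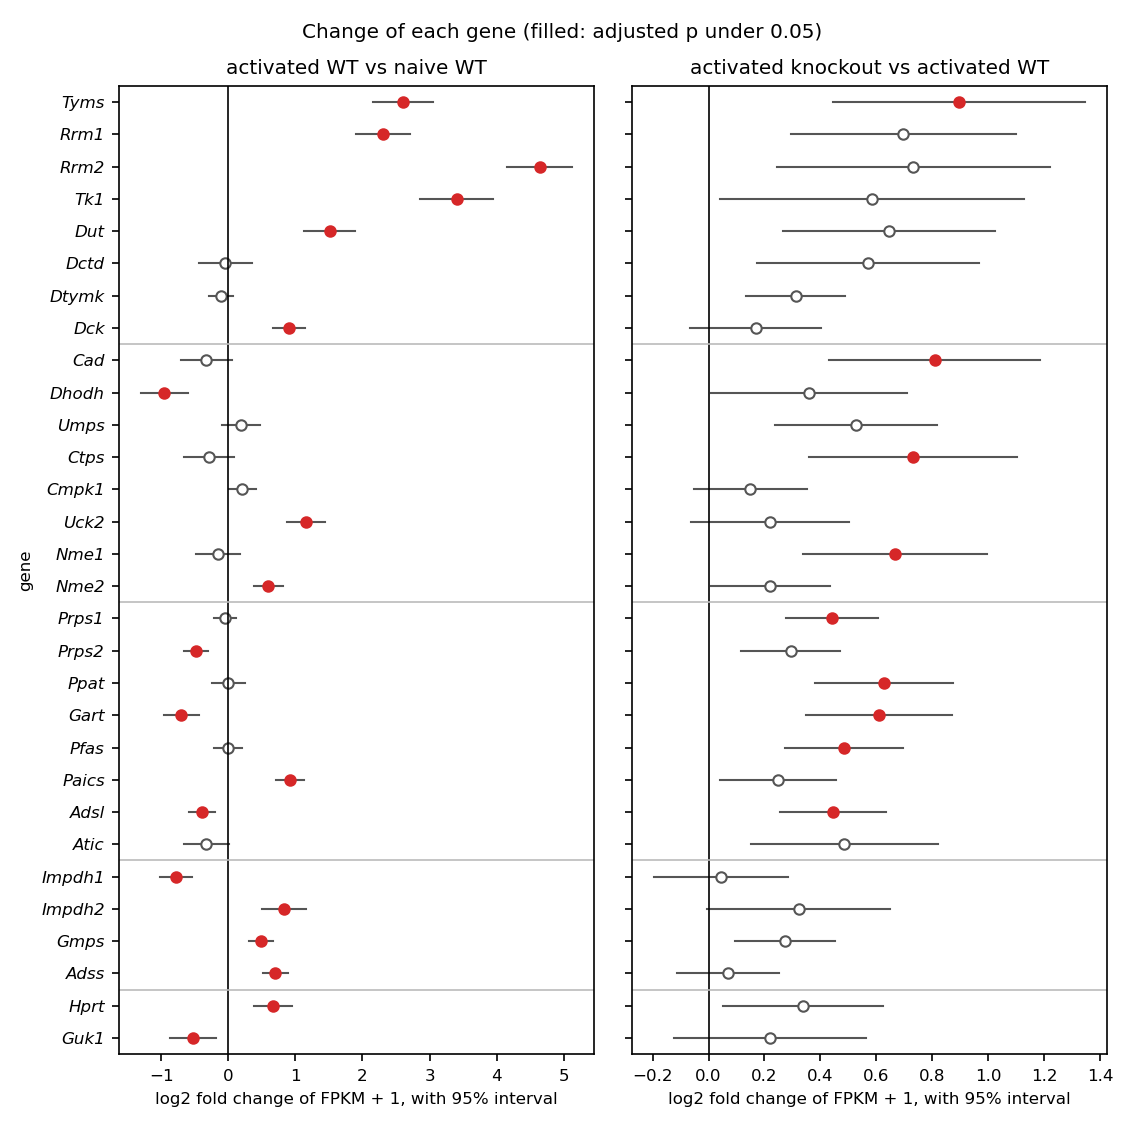
Log2 fold change of FPKM + 1 (horizontal axis, with its 95% interval as a line) for each of the 30 genes, grouped by role, in activated WT against naive WT cells on the left and in activated knockout against activated WT cells on the right. The axes differ in scale. Filled points passed an adjusted p under 0.05: 19 on the left, on both sides of 0, and 9 on the right, all above 0.

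The genes of dNTP supply are described first, beginning with ribonucleotide reductase and thymidylate synthase, whose changes on activation were among the largest. The 120 bases before the RefSeq start of Rrm1, Rrm2 and Tyms are shown with those of Prps1, a gene with no called change on activation, so that promoters of 3 genes that rose can be read beside one of the same pathway that did not pass the test. They are RefSeq sequences of GRCm38.p6, read 5′ to 3′ on the strand of the gene, and capitals mark CCAAT or the E-box letters CACGTG. The stretches are chr7:102441575-102441694 (plus strand) for Rrm1, chr12:24708134-24708253 (plus) for Rrm2, whose last 13 bases lie inside the GENCODE gene, chr5:30073626-30073745 (minus) for Tyms and chrX:140456483-140456602 (plus) for Prps1.
Rrm1: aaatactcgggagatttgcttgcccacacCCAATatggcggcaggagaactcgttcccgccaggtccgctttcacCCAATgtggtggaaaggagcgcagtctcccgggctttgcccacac
Rrm2: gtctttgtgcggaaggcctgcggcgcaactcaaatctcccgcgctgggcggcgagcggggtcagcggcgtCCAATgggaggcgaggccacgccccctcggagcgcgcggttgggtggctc
Tyms: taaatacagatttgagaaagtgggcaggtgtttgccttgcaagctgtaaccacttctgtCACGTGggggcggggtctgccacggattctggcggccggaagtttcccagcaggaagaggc
Prps1: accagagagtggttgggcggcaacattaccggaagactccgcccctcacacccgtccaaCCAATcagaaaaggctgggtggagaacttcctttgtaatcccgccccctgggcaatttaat
Both reductase promoters hold CCAAT, which is also in the Prps1 promoter, and the Tyms stretch holds an E-box 61 bases before its start.

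The same letters were counted on both strands in windows of 250 bases before to 50 bases after the start, which were given for 29 of the 31 listed genes, Dhodh and Pfas lacking one. CCAAT, the letters of the NF-Y box, was in 11 of the 29 (37.9%), in 41.1% of all genes with a window and in 43.6% of the tested ones. CACGTG was in 6 of the 29 (20.7%: Atic, Dtymk, Impdh2, Nme1, Paics and Tyms) and in 8.09% of all genes, or 11.9% of the 9184 tested genes with a window. The words TTTCCCGC or TTTGGCGC, forms of the E2F site, were in the windows of Ppat and Prps2 (6.90%), in 1.80% of all genes and in 3.56% of the tested genes with a window. A match is a description of letters, and their absence from a window says nothing of the factor.

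Rrm2 (ENSMUSG00000020649, chr12:24708241-24714146) encodes the small subunit of ribonucleotide reductase, which cycling cells make for the S phase. Its levels were 1.89, 2.77 and 1.75 FPKM in naive WT, 102, 73.5 and 59.8 in activated WT and 108, 139 and 139 in knockout libraries. All activated libraries lay far above all naive ones, and the 3 knockout libraries lay above the 3 activated WT libraries, with knockout replicate 1 close to activated WT replicate 1. On activation it rose by 4.64 on the log2 scale (SE 0.21, adjusted p 6.27e-06), more than any other of the 30 genes, and its fold change in the knockout, 0.73 (SE 0.21), missed the threshold at an adjusted p of 0.0867.

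Rrm1 (ENSMUSG00000030978, chr7:102441695-102469771), the large subunit that carries the catalytic site, was read at 7.92, 8.58 and 8.54 FPKM in naive WT, 57.4, 45.8 and 35.0 in activated WT and 63.0, 77.05 and 83.2 in knockout libraries. No groups overlapped. It rose by 2.31 on activation (SE 0.17, adjusted p 3.84e-05), and its knockout fold change of 0.70 (SE 0.17) had an adjusted p of 0.0638.

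Tyms (ENSMUSG00000025747, chr5:30058202-30073617), thymidylate synthase, makes dTMP from dUMP. Its levels were 4.24, 5.05 and 4.33 FPKM in naive WT, 43.7, 32.7 and 24.3 in activated WT and 54.4, 61.6 and 69.7 in knockout libraries, and again no groups overlapped. It rose by 2.61 on activation (SE 0.20, adjusted p 3.73e-05) and was the gene of dNTP supply that was called higher in the knockout, with the largest fold change of the 30 genes, 0.90 (SE 0.20, adjusted p 0.0483).

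Tk1, the thymidine kinase of dividing cells, stood at 2.03, 2.68 and 4.46 FPKM in naive WT, 50.1, 39.2 and 34.6 in activated WT and 51.6, 63.7 and 71.3 in knockout libraries. It rose by 3.41 on activation (SE 0.23, adjusted p 2.64e-05), while its knockout fold change of 0.58 had an adjusted p of 0.173. Tk1 lies within Gm20708, a gene on the opposite strand, and the strand setting of the counts is not given in the sources used here. Dut, the dUTPase that keeps uracil out of DNA, was read at 23.3, 25.0 and 26.0 FPKM in naive WT, 89.8, 71.0 and 59.2 in activated WT and 95.7, 132 and 116 in knockout libraries. It rose by 1.51 on activation (adjusted p 0.000205), and its knockout fold change was 0.64 (adjusted p 0.0678).

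The other genes of this group moved less. Dck, which phosphorylates deoxycytidine, rose by 0.90 on activation (adjusted p 0.000236), from a mean of 21.4 ± 2.20 to 40.9 ± 3.59 FPKM (SD, n = 3). Dtymk, the kinase of dTMP, was already at 58.0 ± 1.11 FPKM in naive cells and at 53.9 ± 0.555 in activated WT cells (adjusted p 0.293). Dctd, which deaminates dCMP, was at 2.76 ± 0.383, 2.65 ± 0.476 and 4.47 ± 1.13 FPKM in naive WT, activated WT and knockout cells, the lowest of the 8 genes in both activated groups. The knockout fold changes of Dck, Dtymk and Dctd were 0.17, 0.31 and 0.57, and none of the 3 passed (adjusted p 0.349, 0.0622 and 0.0956).

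**Figure D3:**
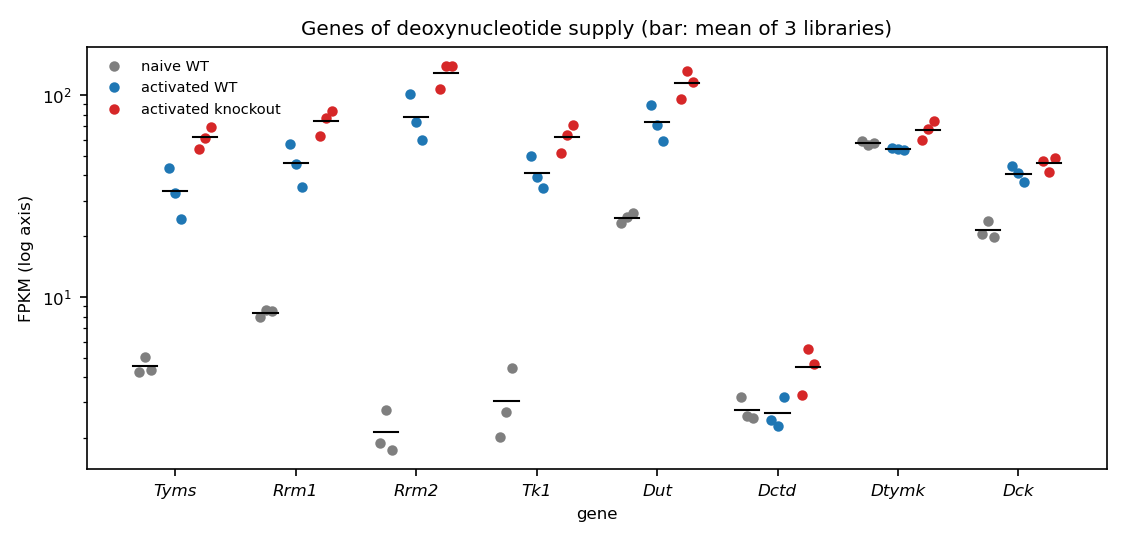
FPKM (log axis) of the 8 genes of dNTP supply in each library, with 3 points per group and a bar at the group mean. Tyms, Rrm1, Rrm2 and Tk1 sit below 9 FPKM in the naive libraries and above 24 in all activated ones, whereas Dtymk and Dctd stay near their naive levels in activated WT cells.

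Of the 8 pyrimidine genes, 2 rose and 1 fell when WT cells were activated, and 3 were called higher in the knockout. Over all tested genes 26.2% were called higher and 25.8% lower on activation, so the 2 that rose are near that share. In the knockout 3.30% of all tested genes were called higher. Cad (ENSMUSG00000013629, chr5:31054780-31078479), the fused enzyme of the first 3 steps, was read at 12.7, 11.5 and 13.0 FPKM in naive WT, 9.65, 8.82 and 10.6 in activated WT and 13.6, 22.5 and 18.1 in knockout libraries. The activated WT libraries were the 3 lowest. The difference from naive cells did not pass (log2 fold change -0.32, adjusted p 0.132), and Cad was called higher in the knockout than in activated WT cells (0.81, SE 0.16, adjusted p 0.0411). Ctps (ENSMUSG00000028633, chr4:120539868-120570276), which makes CTP from UTP, was read at 12.0, 9.34 and 11.7 FPKM in naive WT, 9.17, 8.02 and 9.36 in activated WT and 12.0, 18.6 and 16.1 in knockout libraries. It was called higher in the knockout (0.73, SE 0.16, adjusted p 0.0483), where every library exceeded the activated WT ones, and not called on activation (-0.28, adjusted p 0.175).

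Dhodh, the mitochondrial enzyme of the pyrimidine route, stood at 15.1, 11.3 and 15.6 FPKM in naive WT, 6.08, 6.60 and 7.44 in activated WT and 8.93, 10.4 and 7.47 in knockout libraries. It fell by 0.95 on activation (SE 0.15, adjusted p 0.00133), the largest fall among the 30 genes, and remained lower than naive in the knockout (-0.59, adjusted p 0.0109). Umps, which completes UMP, had means of 8.84 ± 1.73, 10.1 ± 0.145 and 15.1 ± 1.46 FPKM in naive WT, activated WT and knockout cells. Its knockout fold change was 0.53 (adjusted p 0.0568).

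Uck2, the uridine and cytidine kinase of the salvage route, was the pyrimidine gene that rose most on activation. Its levels were 25.2, 22.5 and 20.8 FPKM in naive WT, 57.9, 50.8 and 47.9 in activated WT and 57.3, 71.5 and 54.9 in knockout libraries, and the activated groups overlapped. It rose by 1.16 (SE 0.12, adjusted p 0.000182), and its knockout fold change was 0.22 (adjusted p 0.307). Cmpk1, which phosphorylates UMP and CMP, was at 32.9 ± 3.46, 38.1 ± 2.81 and 42.3 ± 1.46 FPKM in naive WT, activated WT and knockout cells. It was called neither on activation nor in the knockout against activated WT, but was called higher in the knockout than in naive cells (0.36, adjusted p 0.00874).

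Nme1 and Nme2, adjacent genes for subunits of nucleoside diphosphate kinase, which makes the triphosphates, were read at different levels. Nme1 (ENSMUSG00000037601, chr11:93956979-93968521) was read at 29.5, 31.6 and 36.6 FPKM in naive WT, 29.7, 25.3 and 33.1 in activated WT and 39.5, 48.8 and 53.7 in knockout libraries. It was not called on activation (-0.15, adjusted p 0.411) and was called higher in the knockout (0.67, SE 0.14, adjusted p 0.0459). Nme2, the most abundant of the 30, rose from 174 ± 19.7 to 263 ± 18.5 FPKM on activation (0.60, adjusted p 0.00114) and was at 306 ± 9.54 in the knockout (0.22, adjusted p 0.187). The read-through gene Gm20390 covers both on the same strand and has its own row, so the division of fragments between these 3 genes is uncertain.

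In the purine route, PRPP synthetase and the enzymes up to IMP gave 5 of the 9 genes called higher in the knockout. Over all tested genes 3.30% were called higher there. The rise was not largest in this group. The median log2 fold change in the knockout was 0.61 for dNTP supply, of which 1 gene was called, and 0.46 for these 8 genes. It was 0.44 for the pyrimidine genes and 0.17 for the conversion of IMP. Prps1 (ENSMUSG00000031432, chrX:140456613-140476140), whose promoter is shown above, makes PRPP. Its level was 22.2, 24.2 and 22.1 FPKM in naive WT, 22.4, 21.3 and 22.7 in activated WT and 27.8, 31.5 and 32.1 in knockout libraries. Naive and activated WT libraries were mixed (-0.04, adjusted p 0.632) and the 3 knockout libraries lay above all 6 of them (0.44 over activated WT, SE 0.07, adjusted p 0.0276). Prps2, its paralog, fell by 0.48 on activation (adjusted p 0.00144), from 31.3 ± 2.88 to 22.2 ± 0.963 FPKM, and was at 27.4 ± 1.07 in the knockout (0.29, adjusted p 0.0725). Prps2 overlaps Gm15239 on the opposite strand.

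Ppat (ENSMUSG00000029246, chr5:76913249-76951578), the amidotransferase of the committed step, showed the same arrangement as Prps1. Its levels were 13.0, 14.3 and 12.7 FPKM in naive WT, 13.6, 13.1 and 13.3 in activated WT and 17.8, 23.9 and 22.4 in knockout libraries. It was not called on activation (0.00, adjusted p 0.994) and was called higher in the knockout (0.63, SE 0.11, adjusted p 0.0282). Paics (ENSMUSG00000029247, chr5:76951307-76967509), which catalyses a later pair of steps, is transcribed away from Ppat on the other strand, and their annotations share 272 bases. Its level was 51.5, 55.3 and 53.2 FPKM in naive WT, 115, 100.2 and 92.4 in activated WT and 112, 129 and 123 in knockout libraries. It rose on activation by 0.92 (SE 0.09, adjusted p 0.000123), and its knockout fold change of 0.25 did not pass (adjusted p 0.141). Ppat also overlaps the antisense gene 2310040G07Rik, and without a strand setting reads of these genes cannot be told apart where they overlap.

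Gart (ENSMUSG00000022962, chr16:91621186-91646952), the trifunctional enzyme that carries a folate-dependent step, was read at 34.1, 30.4 and 34.8 FPKM in naive WT, 18.8, 19.2 and 22.1 in activated WT and 26.4, 34.5 and 32.6 in knockout libraries. The activated WT libraries lay below all others, and the knockout and naive libraries overlapped. Gart fell by 0.70 on activation (SE 0.11, adjusted p 0.00144) and was called higher in the knockout than in activated WT cells (0.61, SE 0.11, adjusted p 0.0357). Against naive cells the knockout gave -0.09 (95% interval -0.35 to 0.17, adjusted p 0.522). Its antisense neighbour Gm15964 has a row of its own.

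Adsl (ENSMUSG00000022407, chr15:80948490-80970946), the lyase that serves both the IMP route and the step to AMP, had levels of 42.5, 40.4 and 41.6 FPKM in naive WT, 30.9, 29.8 and 33.6 in activated WT and 38.9, 47.7 and 43.2 in knockout libraries. It too was lowest in the activated WT libraries. It fell by 0.39 on activation (SE 0.08, adjusted p 0.00504) and was called higher in the knockout (0.45, SE 0.08, adjusted p 0.0353). For Gart and Adsl both calls share the 3 activated WT libraries, so a low reading in that group would enter each.

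Pfas (ENSMUSG00000020899, chr11:68985697-69008460), which carries out the fourth step, was read at 7.11, 7.001 and 7.86 FPKM in naive WT, 6.84, 8.08 and 7.12 in activated WT and 9.62, 11.1 and 11.4 in knockout libraries. The WT groups overlapped (0.00, adjusted p 0.987), and the knockout libraries lay above both (0.48 over activated WT, SE 0.09, adjusted p 0.0359). Atic, which closes the ring to IMP, was at 42.9 ± 8.10, 33.8 ± 2.61 and 47.9 ± 6.18 FPKM, and neither its difference on activation (-0.32, adjusted p 0.0930) nor that in the knockout (0.49, adjusted p 0.0923) passed. The summed level of the 8 genes was 243, 256 and 238 FPKM in naive WT and 265, 244 and 249 in activated WT libraries, which overlap, and 301, 359 and 342 in knockout libraries. That of dNTP supply, by contrast, was 122, 127 and 126 FPKM in naive WT, 444, 359 and 307 in activated WT and 483, 588 and 607 in knockout libraries.

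**Figure D4:**
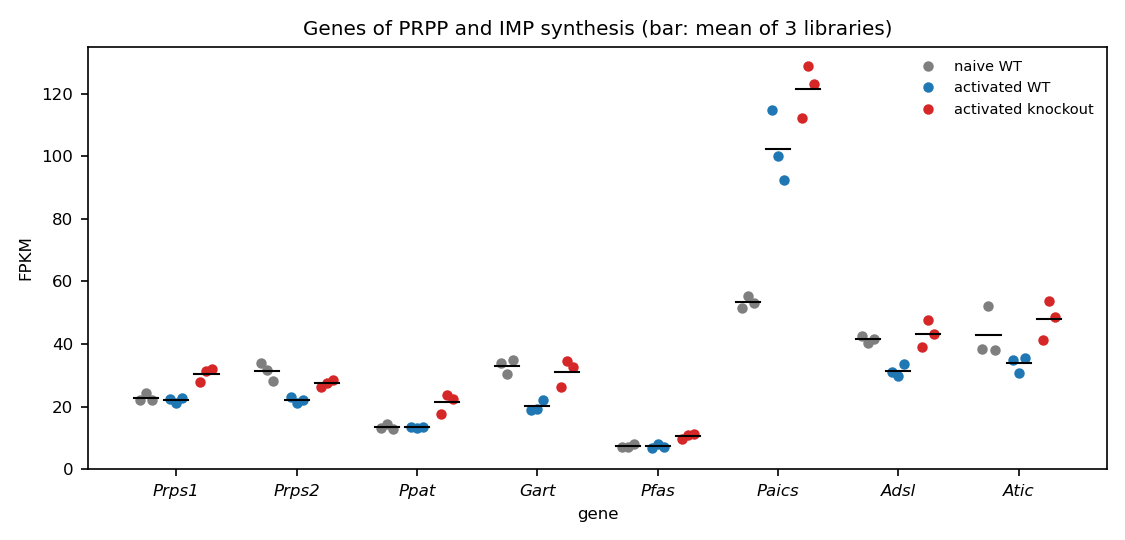
FPKM of the 8 genes of PRPP and IMP synthesis in each library, with 3 points per group and a bar at the group mean. Paics alone rises from naive to activated WT cells, from 53.3 to 102 FPKM, and the knockout points of Prps1, Ppat, Gart, Pfas and Adsl lie above the activated WT points.

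Downstream of IMP, the paralogs of IMP dehydrogenase, the enzyme of the step toward GMP, moved in opposite directions on activation. Impdh1 (ENSMUSG00000003500, chr6:29200434-29216364) was read at 57.4, 53.8 and 56.3 FPKM in naive WT, 33.3, 29.8 and 33.6 in activated WT and 31.7, 39.1 and 29.6 in knockout libraries. It fell by 0.78 (SE 0.10, adjusted p 0.000575). Impdh2 (ENSMUSG00000062867, chr9:108560286-108565584) was read at 52.3, 51.4 and 58.3 FPKM in naive WT, 118, 89.9 and 84.4 in activated WT and 107, 138 and 119 in knockout libraries, and rose by 0.83 (SE 0.14, adjusted p 0.00190). In both genes the activated groups overlapped, with knockout fold changes of 0.04 (95% interval -0.20 to 0.29) and 0.32 (-0.01 to 0.65). A processed pseudogene, Impdh2-ps, had a row of its own at 15.4 to 41.7 FPKM, and the division of fragments between the gene and this copy is uncertain.

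Gmps, which makes GMP from xanthosine monophosphate, rose from 6.56 ± 0.241 to 9.60 ± 0.0791 FPKM on activation (0.49, adjusted p 0.00132) and was at 11.9 ± 1.16 in the knockout (0.27, adjusted p 0.0850). Adss, the first enzyme of the branch to AMP, rose from 34.8 ± 3.26 to 57.1 ± 3.35 FPKM (0.70, adjusted p 0.000253) and was at 59.9 ± 1.63 in the knockout, a fold change of 0.07 (95% interval -0.11 to 0.25, adjusted p 0.636). None of these 4 genes was called between the activated groups.

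Of the salvage genes, Hprt, which recycles hypoxanthine and guanine, was read at 55.7, 51.1 and 61.3 FPKM in naive WT, 101, 92.0 and 76.1 in activated WT and 103, 125 and 112 in knockout libraries. It rose by 0.67 on activation (adjusted p 0.00279), and the knockout fold change of 0.34 did not pass (adjusted p 0.143). Guk1, the kinase of GMP, fell from 31.1 ± 4.83 to 21.4 ± 3.77 FPKM (-0.52, adjusted p 0.0195), and was the one gene among the 19 called on activation that lost its call in any of the 19 alternative analyses.

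Ratios between paired genes were formed within each library, with no test. Rrm2 was read at 0.255 ± 0.0607 times the level of Rrm1 in naive cells, 1.69 ± 0.0855 times in activated WT and 1.73 ± 0.0705 times in knockout cells, and the activated groups overlapped in this ratio (1.60 to 1.77 and 1.67 to 1.81) although each gene was read higher in every knockout library than in any activated WT library. Impdh2 to Impdh1 went from 0.967 ± 0.0631 to 3.02 ± 0.513 and 3.64 ± 0.350, and Prps2 to Prps1 from 1.37 ± 0.136 to 1.001 ± 0.0316 and 0.901 ± 0.0373. Nme2 to Nme1 was 5.35 ± 0.407 in naive, 9.05 ± 1.17 in activated WT and 6.56 ± 0.910 in knockout cells, with activated WT above all other libraries (7.70 to 9.87 against 4.94 to 7.51). Paics to Ppat, a pair chosen after their values were seen, followed the same course with 4.005 ± 0.175, 7.67 ± 0.746 and 5.75 ± 0.507.

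**Figure D5:**
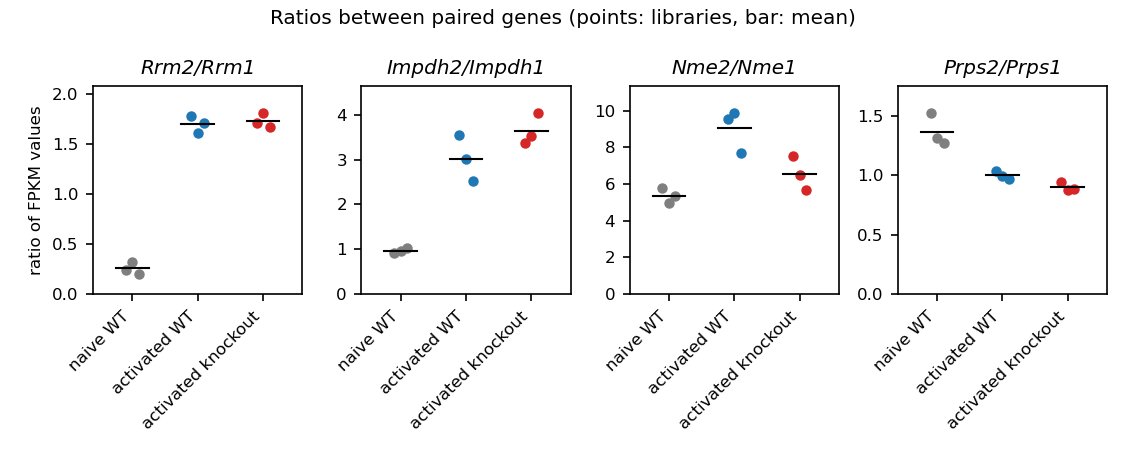
Ratio of FPKM values within each library for Rrm2/Rrm1, Impdh2/Impdh1, Nme2/Nme1 and Prps2/Prps1, with 3 points per group, a bar at the mean and each axis starting at 0. The ratio Rrm2/Rrm1 is 0.205 to 0.323 in naive libraries and 1.60 to 1.81 in all activated ones, and Nme2/Nme1 is highest in activated WT libraries.

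Transcription factors and proliferation genes were read beside the 30 genes. E2f1, which drives S phase genes, was at 0.864, 0.908 and 0.797 FPKM in naive WT, 8.73, 6.43 and 5.77 in activated WT and 8.73, 12.1 and 13.0 in knockout libraries. It rose on activation (2.09, adjusted p 5.83e-05) and had a knockout fold change of 0.62 (adjusted p 0.0804). E2f2 rose by 2.602 on activation (adjusted p 2.70e-05) and had a knockout fold change of 0.07, and E2f3 was called in neither of these comparisons (0.67 and 0.44). Myc, a regulator of nucleotide synthesis genes, was at 47.4, 45.04 and 50.1 FPKM in naive WT, 51.4, 47.3 and 63.6 in activated WT and 57.0, 92.1 and 66.7 in knockout libraries. The activated groups overlapped for Myc, which was called neither on activation (0.17, adjusted p 0.437) nor in the knockout against activated WT (0.39, adjusted p 0.221). Against naive WT cells, all 4 factors, Myc and E2f3 included, were called higher in the knockout, as were 31.8% of all tested genes. Their log2 fold changes there were 0.56 to 2.71, with limma adjusted p-values of at most 0.0264.

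All 17 proliferation genes, among them Mki67, Top2a, Pcna and Mcm2 to Mcm7, rose on activation, as did 26.2% of all tested genes. Between the activated groups 0 of the 17 were called by limma and 12 had an unadjusted p under 0.05, all 17 fold changes were positive, and the median was 0.55. Of the 15126 genes tested, 3.30% were called higher there, 3786 had an unadjusted limma p under 0.05 and 9152 had positive fold changes, with a median of 0.06. The summed level of the 17 genes was 1616, 1215 and 950.3 FPKM in activated WT and 1525, 1833 and 1890.3 in knockout libraries, so these groups overlapped. The order of the libraries within each group was the same as for the sum over dNTP supply, and the part of proliferation in the knockout values of the nucleotide genes was not tested.

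Of 62 further genes of nucleotide metabolism, 59 had a row and 51 were tested, while Cda, Dpyd and Pnp are not analysed here. On activation 23 of the 51 rose and 16 fell, where 26.2% of all tested genes were called higher and 25.8% lower. In the knockout 4 were higher and 2 lower than in activated WT cells, with a median of 0.07. Over all tested genes 3.30% were called higher there and 0.840% lower, with a median of 0.06. Samhd1, the hydrolase that breaks down dNTPs, rose with the genes of dNTP supply, from 209.9, 205 and 189 FPKM in naive WT to 752, 934 and 812 in activated WT libraries (2.04, SE 0.10, adjusted p 6.72e-06). In the knockout Samhd1 was read at 551, 531 and 489 FPKM, below every activated WT library (-0.66, adjusted p 0.0216). The 8 genes of dNTP supply all had positive fold changes there, but only 1 of them, Tyms, was called. All 30 nucleotide genes and 9152 of the 15126 genes tested had positive fold changes too. Other genes that rose on activation were Xdh, which oxidises hypoxanthine and xanthine (2.44), the adenylate kinase family genes Ak4 (2.21) and Ak3 (0.91), and Nme7 (0.83). Those that fell most were the AMP deaminases Ampd3 (-2.47) and Ampd1 (-1.87), the AMP-hydrolysing surface enzyme Nt5e (-1.73), Nme4 (-1.13) and Prpsap2, a partner of PRPP synthetase (-1.04).

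Of 8 genes for folate enzymes that supply carbon for purines and dTMP, 2 were called higher in the knockout and 6 were not called. They made up 2 of the 4 further genes called higher, where 3.30% of all tested genes were. The median log2 fold change of the 8 was 0.22, against 0.06 for all tested genes. Mthfd1, which makes the formyl donor used by Gart and Atic, was at 16.1, 15.9 and 16.0 FPKM in naive WT, 11.1, 10.0 and 11.6 in activated WT and 16.0, 22.0 and 21.4 in knockout libraries (0.79 over activated WT, SE 0.12, adjusted p 0.0232). Mthfd1 was lower in activated WT than in naive WT cells (-0.51, adjusted p 0.00779), as was Gart. Both calls of Mthfd1 share the activated WT libraries, so a low reading in that group would enter each. Shmt2, the mitochondrial serine hydroxymethyltransferase, was at 31.9, 25.9 and 29.5 FPKM in activated WT and 39.1, 59.6 and 49.8 in knockout libraries (0.73, SE 0.15, adjusted p 0.0411). Ada, adenosine deaminase, was at 5.21, 4.42 and 7.03 FPKM in activated WT and 10.4, 11.4 and 10.9 in knockout libraries (0.88, SE 0.14, adjusted p 0.0270). Uckl1, a relative of Uck2, was lower (-0.33, adjusted p 0.0416). The 19 alternative analyses were followed gene by gene only for the 30 nucleotide genes. The knockout calls of these further genes and of Klrk1 were therefore not checked in them.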

How the data were processed

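The authors deposited 1 table of FPKM values per gene and library. Per the submitters' processing notes, TopHat2, Cufflinks and Cuffdiff were used with GRCm38. Of their versions, the annotation, the strand setting and the read depth nothing is given in the sources used here, so no counting interval or detection limit was computed. Between 12922 and 13395 genes per library reached 1 FPKM. Low values are fractional estimates, which leave the number of reads unknown. Of the 25759 identifiers, 24876 matched a symbol, and positions and overlaps come from GENCODE release M21.

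Values were tested unscaled as log2(FPKM + 1), for genes averaging 0.5 FPKM or more, by limma 3.58.1 in R 4.3.3 (moderated test with an intensity trend, two-sided, 1 fit of all 9 libraries by group). The Benjamini-Hochberg adjustment covered all 15126 tested genes, and calls needed an adjusted p under 0.05. This log2 scale understates changes of low genes. The code was tested on simulated data. An exact permutation test of 3 against 3 libraries cannot go below 0.1. The alternatives were other pseudocounts (0.1 and 5), filters (none, and 2 FPKM) and scalings, library weights, the 6 libraries compared only, a replicate block and each library left out.

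The members and gene lists were chosen with earlier results of these data known. All members were named, with values per library for those with the largest change in their role and those called in the knockout. Of the further pathway genes, up to 5 called in each direction on activation with at least 5 FPKM in the higher group and up to 6 called in the knockout were named. Of the latter, 1 gene is not reported here. Promoter sequences are from RefSeq (GRCm38.p6).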

Additional observations from a re-analysis of the deposited data

How the results depend on the processing

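On activation, 18 of the 19 calls among the nucleotide genes held in all 19 alternatives, with 13 to 15 genes higher and 5 to 9 lower, and Guk1 held in 15. In the knockout against activated WT cells, none of the 9 calls held in all of them, and each held in only 5 to 9 of the 19. The number higher was 9 with a pseudocount of 0.1 and with the 2 FPKM filter. It was 8 with a pseudocount of 5 and with equal protein-coding sums. It was 3 with no filter on low values and 22 with array quality weights. With median-of-ratios scaling, with quantile normalization and with only the 6 libraries compared it was 0, and leaving out 1 library gave 0 to 13. With the replicate number as a block it was 0, but same-numbered libraries deviated together only with correlations of 0.003 to 0.054, so the numbers are not known to pair libraries. In these alternatives 18 to 27 of the 30 genes had an unadjusted p under 0.05, 28 to 30 had a positive fold change, and the median exceeded that of all genes by 0.30 to 0.46. Over all genes, 626 were called in this comparison, 306 with median-of-ratios scaling, 324 with quantile normalization and 582 with equal protein-coding sums. It was 416 with no filter, 92 with 6 libraries, 58 with the block and 3851 with weights, and 64 to 1037 without 1 library. The share that was higher was 79.7%, against 54.2% with median-of-ratios scaling, 56.5% with quantile normalization and 77.5% with equal protein-coding sums. In the knockout against naive cells, 18 to 24 genes were higher (19 with no filter, with quantile normalization, with only 6 libraries and with the replicate block, 18 without knockout replicate 3) and 20 of the 25 calls held in all alternatives; 4 genes were lower with quantile normalization and with weights, and quantile normalization moved the median of all genes from 0.04 to -0.08.

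Signs changed only for genes called in neither direction in that comparison. On activation, leaving out 1 library gave -0.15 to 0.040 for Dctd, -0.059 to 0.049 for Pfas and -0.032 to 0.050 for Ppat; equal protein-coding sums gave -0.013 for Pfas and -0.016 for Ppat, and quantile normalization -0.018 for Pfas. In the knockout against activated WT, median-of-ratios scaling and quantile normalization gave -0.0058 and -0.013 for Adss and -0.030 and -0.045 for Impdh1, which ranged from -0.070 to 0.13 without 1 library. Against naive cells, quantile normalization gave -0.11 for Adsl and -0.0062 for Atic, and leaving out 1 library gave -0.016 to 0.13 for Adsl and -0.17 to 0.022 for Gart.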
